A study of Homo sapiens with 12 samples.

Results

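EIF2AK2, IFIT5, IFI44L and RSAD2 were followed in HEK293 cells after transfection of a synthetic miR-1825 mimic or a control RNA. These 4 genes belong to the cell's response to double-stranded RNA and interferon, and they were chosen by name from 14884 genes that could be named on the array. Each gene was represented by 1 row of the deposited table, called a transcript cluster, out of 53617 rows in all. The choice used measured values: these 4 genes had been singled out among interferon-related genes by how they differed between mimic and control on these same arrays. Their differences are therefore given as a description, with no test.

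Expression was measured with Affymetrix Human Gene 2.0 ST arrays, 6 for the control group and 6 for the mimic-1825 group. HEK293 is an adenovirus-transformed human embryonic kidney line grown in culture. Control cells received AllStars Negative Control siRNA and mimic-1825 cells received Syn-hsa-miR-1825, both at 5 nM with HiPerfect reagent, and RNA was isolated 24 h later. Both groups had thus taken up a short synthetic RNA, and no untransfected arrays were analysed here, so a response shared by both groups cannot be read from the comparison. The labels give no separate cultures for the replicates, so a p-value here reflects no more than the spread of these arrays, and that spread may be technical in origin. Because RNA came from whole cultures, a change in every cell and a change in a share of the cells cannot be told apart.

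Cells detect double-stranded RNA with cytosolic sensors, such as RIG-I and MDA5, and with the kinase PKR. The sensors signal through the adaptor MAVS and the kinase TBK1 to interferon regulatory factors, which switch on interferon genes. Secreted interferon then acts through receptors and JAK kinases, and the induced genes often carry a promoter element called the interferon-stimulated response element (ISRE). EIF2AK2 encodes PKR, which halts translation by phosphorylating the initiation factor eIF2α once it has bound double-stranded RNA. IFIT5 encodes an RNA-binding protein with tetratricopeptide repeats, RSAD2 encodes viperin, a radical SAM enzyme that makes a chain-terminating nucleotide, and IFI44L encodes an interferon-induced protein whose role is less well defined.

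The transfected mimic has the sequence of miR-1825, a short microRNA whose seed, bases 2 to 8, directs pairing with target transcripts. Its mature sequence in RefSeq lies at chr20:32237830-32237847 on the plus strand of GRCh38.p14. It is shown beside hsa-miR-199a-5p, the other human miRNA in the table with the same bases 2 to 7, with the seed of each in capitals.
hsa-miR-1825: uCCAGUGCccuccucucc
hsa-miR-199a-5p: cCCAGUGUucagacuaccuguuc
Among 2370 mature names in the table, only miR-1825 itself carried its exact seed of 7 bases. The sequences used here did not include 3' UTRs, so seed sites in the 4 genes were not analysed here.

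The promoters of the 4 genes are shown for the ISRE. The choice of genes bears on it, because they were taken from interferon-related genes, which often carry this element. RefSeq promoters, 250 bases before to 50 after each start of transcription on GRCh38.p14, were found for all 4 genes and searched on both strands for the ISRE core GAAANNGAAA, which reads TTTCNNTTTC on the other strand. All 4 genes held at least 1 match, while 4.38% of the 27305 genes in the table did (3.57% of all 35116 promoters of the same length). Among 32 other interferon-stimulated genes with a promoter the share was 68.8%, so matches in the 4 genes do not set them apart. Stretches of 30 bases are given along each gene's own strand, with the matches in capitals.
EIF2AK2, chr2:37156967-37156996, minus strand: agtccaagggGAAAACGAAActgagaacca
IFIT5, chr10:89414513-89414542, plus strand: ttctattaagTTTCGGTTTCtgaagcttac
IFIT5, chr10:89414547-89414576, plus strand: agTTTCGATTTCttaagTTTCAGTTTCtga
IFI44L, chr1:78620274-78620303, plus strand: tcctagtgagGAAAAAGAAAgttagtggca
IFI44L, chr1:78620365-78620394, plus strand: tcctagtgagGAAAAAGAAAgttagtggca
RSAD2, chr2:6877622-6877651, plus strand: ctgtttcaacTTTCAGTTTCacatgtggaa
The EIF2AK2 match began 6 bases before the start of transcription and ran across it. IFIT5 had 3 matches, beginning 45, 19 and 4 bases before its start, all on the opposite strand. IFI44L had 2 matches in identical surroundings, because a stretch of 85 bases occurs again 91 bases further on. RSAD2 has 2 starts in RefSeq: the match lay 145 bases before the second, and none was found at the first. A second element, the gamma-activated site TTCNNNGAA, had 0 matches in these promoters, against 9.38% of genes in the table. Such matches describe letters in a window, not binding in these cells.

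**Figure D1:**
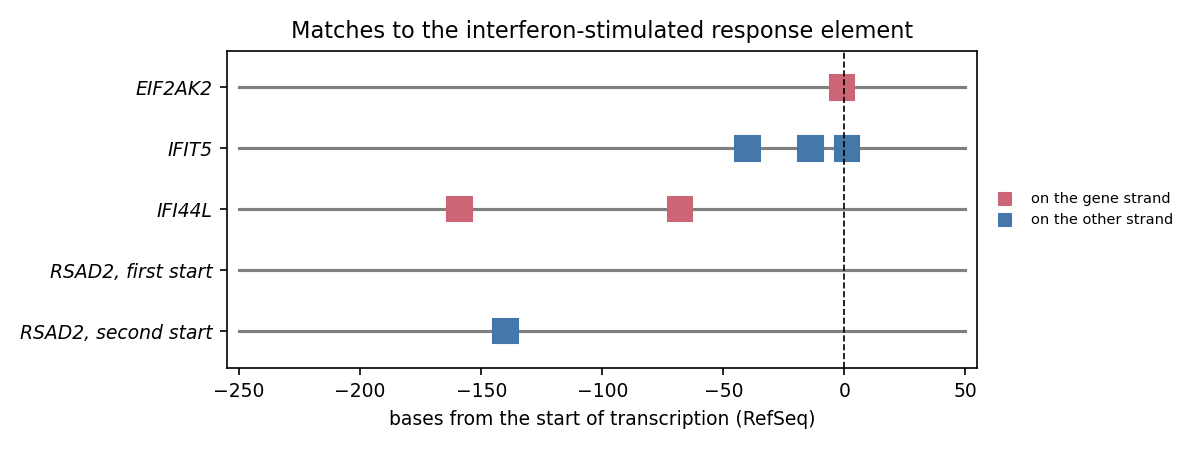
Position of each match to the ISRE core (bars, 10 bases wide) in bases from the start of transcription, for the RefSeq promoters of the 4 genes. EIF2AK2 and IFIT5 carry matches at the start itself, IFI44L at 164 and 73 bases before it, and RSAD2 at 145 bases before its second start.

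PKR's gene, EIF2AK2, was the one of the 4 whose groups were fully apart. Its log2 values ran from 9.82 through a median of 9.90 to 9.97 in control and from 10.00 through 10.05 to 10.11 after the mimic. Every mimic array lay above every control array. The means were 9.90 ± 0.06 and 10.06 ± 0.04 (SD, n = 6 each), a log2 difference of 0.16 or 1.12-fold. Groups that did not overlap were found for 260 of the 14884 named genes, 1.75%, and with the mimic higher for 1.34%; since these arrays chose the gene, nothing is read from that comparison. The pooled within-group SD of EIF2AK2 was 0.05. Of the 1380 clusters within 0.5 log2 units of its mean, 26.0% had a smaller SD. By the same measure the shares were 38.6% for IFIT5, 34.7% for IFI44L and 17.3% for RSAD2. The 4 genes were chosen on these arrays, so nothing is read from these shares. Only 3.66% of clusters had a brighter mean than EIF2AK2.

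IFIT5, from the IFIT family of RNA-binding antiviral proteins, had a higher mean after the mimic with overlapping groups. Control values ran from 7.37 through a median of 7.53 to 7.56, and mimic values from 7.53 through 7.58 to 7.73. All 6 mimic arrays were above the control mean and 4 of 6 were above the highest control. The means were 7.49 ± 0.09 and 7.61 ± 0.08 (SD, n = 6 each), a log2 difference of 0.12 or 1.09-fold. Controls 4 and 6, at 7.37 and 7.38, sat below the other 4, which were between 7.51 and 7.56. Mimic replicates 1 and 3 were the high ones, at 7.73 and 7.69.

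IFI44L had a higher mean after the mimic, at a level close to the middle of the array. Its values ran from 4.34 through a median of 4.49 to 4.69 in control and from 4.56 through 4.65 to 4.98 after the mimic. All 6 mimic arrays were above the control mean, but only mimic replicate 3 exceeded the highest control. The means were 4.50 ± 0.14 and 4.68 ± 0.15 (SD, n = 6 each), a log2 difference of 0.18 or 1.14-fold. Without mimic replicate 3, whose value of 4.98 stood above the 4.56 to 4.67 of the other 5, the log2 difference was 0.13. The median of all cluster means was 4.48, and the share of background in the IFI44L signal was not tested.

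RSAD2, which encodes viperin, was the only one of the 4 with a lower mean after the mimic. Control values ran from 3.77 through a median of 4.08 to 4.13, and mimic values from 3.69 through 3.83 to 3.99. All 6 mimic arrays were below the control mean, and only 1 of them was below the lowest control. The means were 4.04 ± 0.13 and 3.84 ± 0.10 (SD, n = 6 each), a log2 difference of -0.19 or 0.876-fold. Control replicate 4, at 3.77, stood below the other controls at 4.06 to 4.13, and without it the log2 difference was -0.24. A brighter mean was found in 60.7% of clusters, so RSAD2 lay in the dimmer part of the array, and the share of background in its signal was not tested either.

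**Figure D2:**
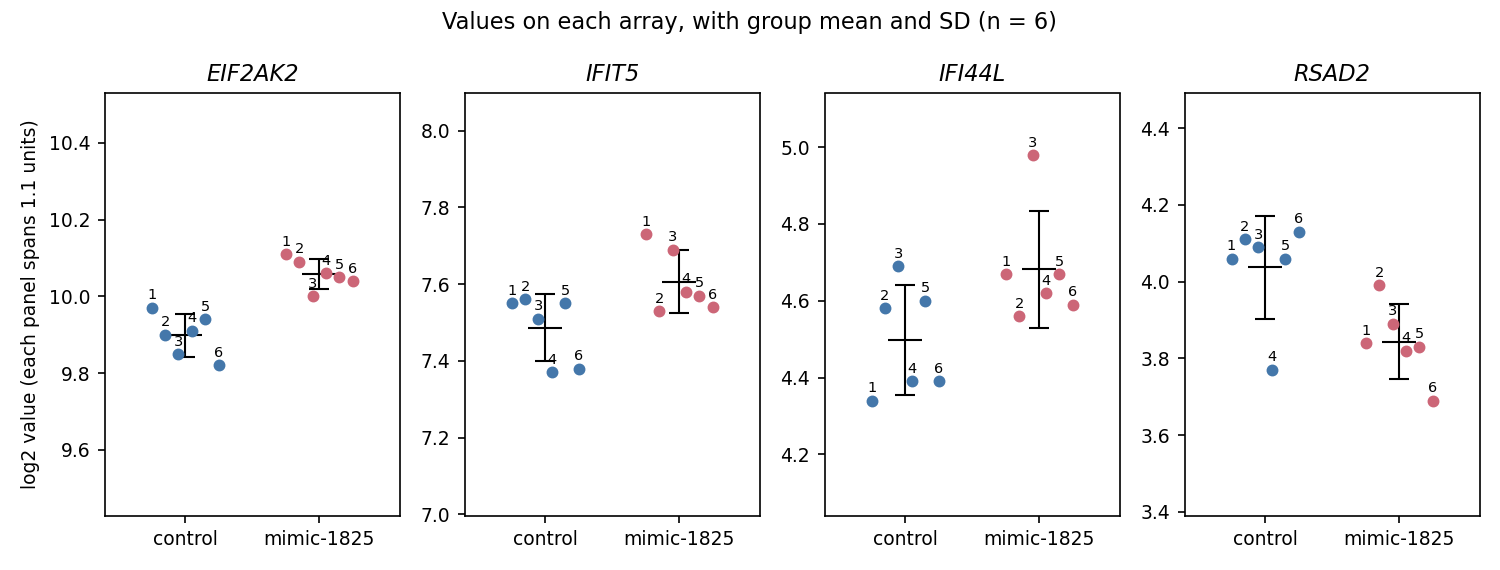
Log2 value on each array for the 4 genes in control and mimic-1825 cells, with replicate numbers beside the points and the group mean and SD as bars (n = 6 each); every panel spans 1.1 log2 units. EIF2AK2 groups are apart, between 9.82 and 9.97 against 10.00 and 10.11, while the groups of the other 3 genes overlap.

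Differences of the size seen in these genes were common on the array. A log2 difference at least as large as that of EIF2AK2, in either direction, was found for 10.3% of named genes. The shares were 19.6% for IFIT5, 6.89% for IFI44L and 6.25% for RSAD2. They count log2 size alone, over rows of every level, although the spread differed with level. The median SD of clusters within 0.5 log2 units was 0.06 for EIF2AK2, 0.1 for IFIT5 and 0.17 for IFI44L and RSAD2. The limma test over all clusters called 6 of 53617 at an adjusted p under 0.05, 0.0112%. None of them was the row used for a named gene. The number of clusters called was 0 with a replicate block, 0 to 6 when a single array was left out, and 242 in the brightest 25%. At an unadjusted limma p under 0.05 there were 1618 of 14884 named genes, 10.9%, of which 995 had higher means (6.69%) and 623 lower (4.19%).

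Within groups, the 4 genes varied from array to array with correlations of both signs. Deviations from the group means over 12 arrays, which share scanning and normalization, gave a Pearson correlation of 0.57 for IFIT5 with IFI44L, the highest of the 6 pairs. Without mimic replicate 3 that correlation was 0.49. EIF2AK2 with IFI44L had -0.41, the lowest, which was -0.20 without mimic replicate 3, and EIF2AK2 with IFIT5 had 0.34. IFIT5 with RSAD2 had 0.35, which was -0.05 without control replicate 4, the array that was lowest for both. IFI44L with RSAD2 had 0.27, which was 0.10 without control replicate 4, and EIF2AK2 with RSAD2 had -0.07. Mimic replicate 1 was the highest mimic array for EIF2AK2, at 10.11, and for IFIT5, at 7.73. Mimic replicate 3 was the lowest mimic array for EIF2AK2, at 10.00, and the highest for IFI44L. Mimic replicate 2 was the closest of the mimic arrays to the controls for IFIT5, IFI44L and RSAD2.

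**Figure D3:**
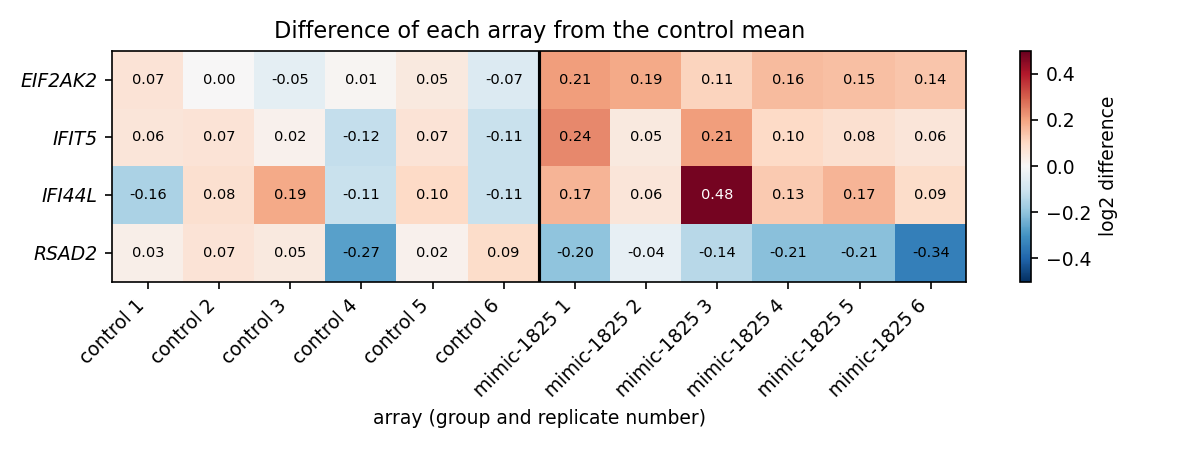
Difference of each array's log2 value from the gene's control mean, for the 4 genes (rows) on the 12 arrays (columns), with the value in each cell. In mimic-1825 columns EIF2AK2 runs from 0.11 to 0.21, IFIT5 from 0.05 to 0.24, IFI44L from 0.06 to 0.48 and RSAD2 from -0.34 to -0.04.

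The genes whose array-to-array pattern was most like each of the 4 were, apart from a pseudogene, not interferon genes by name. They were taken as the highest Pearson correlations of deviations from the group means over 12 arrays, and the highest of so many correlations is large whatever the genes. Among 10131 named genes at or above the median mean, EIF2AK2 was most like GRB14 (0.89), an adaptor of receptor tyrosine kinases, MRPL45 (0.88), of the mitochondrial ribosome, and PNPLA4 (0.85). IFIT5 was most like TMEM87A (0.95), CHST10 (0.92) and DERL2 (0.92), a factor of endoplasmic reticulum degradation. IFI44L was most like PPARG (0.97), a nuclear receptor gene, CNTNAP1 (0.91) and CDK1 (0.90), the kinase of mitotic entry. RSAD2 was most like NAGK (0.94), IFITM4P (0.93), a pseudogene of the interferon-induced IFITM family, and UNCX (0.92), among 10132 genes. NAGK, IFITM4P and UNCX shared with RSAD2 a low control replicate 4. Without that array their correlations with RSAD2 were 0.84, 0.83 and 0.76. IFITM4P has near-identical relatives, so its row may also read other IFITM transcripts.

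The closest relatives of EIF2AK2, IFIT5 and IFI44L differed little between mimic and control, and none was measured for RSAD2. Of 8 relatives measured, 4 had higher means and 4 lower, and the median log2 difference was -0.03 against 0.00 over all named genes. With limma 0 of 8 passed at an adjusted p under 0.05, and 0 had an unadjusted p under 0.05. Among the other kinases of eIF2α, EIF2AK1 (HRI, which senses heme shortage) had a log2 difference of 0.05, SE 0.04. EIF2AK3 (PERK, of the endoplasmic reticulum) had -0.07, SE 0.06, and EIF2AK4 (GCN2, which senses amino acid shortage) had 0.00, SE 0.04. EIF2AK4 was as steady as EIF2AK2, running from 8.53 to 8.63 in control and from 8.52 to 8.63 after the mimic. Whether EIF2AK2 differed from them in its response was not tested, because EIF2AK2 had been chosen for its difference.

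IFIT5's relatives in the IFIT family had log2 differences on both sides of 0. IFIT1, which binds foreign RNA ends, had -0.07, SE 0.12, IFIT2 had -0.07, SE 0.06, IFIT3 had -0.06, SE 0.10, and IFIT1B had 0.05, SE 0.05. IFIT1 varied widely within groups, from 4.31 to 5.01 in control and from 4.32 to 4.84 after the mimic. The rows of IFIT1B, IFIT2 and IFIT3 had means under 3.50, below the median of all clusters. IFI44, the paralog of IFI44L, had 0.03, SE 0.07, at a mean of 2.64 ± 0.11 in control (SD, n = 6). Background in the dim rows of IFIT1B, IFIT2, IFIT3 and IFI44 was not tested, so a difference there could be missed. CMPK2, the neighbour of RSAD2 that is induced with it, was not analysed here. The promoters of IFIT1, IFIT3 and IFI44 each held the ISRE core, as 3 of the 6 relatives with a promoter in the table did.

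**Figure D4:**
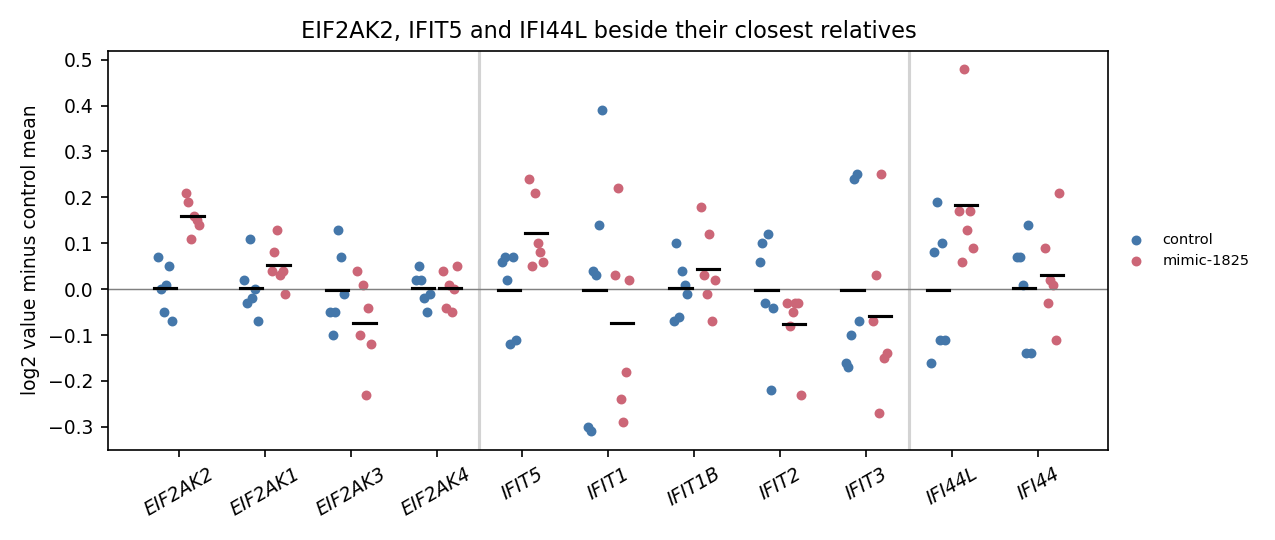
Log2 value on each array minus the same gene's control mean, for EIF2AK2, IFIT5 and IFI44L and their closest relatives; points are arrays, black lines are group means (n = 6 each). Mimic means lie at 0.16, 0.12 and 0.18 for the first gene of each block and between -0.07 and 0.05 for the relatives.

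Upstream of the 4 genes, the RNA sensors and their adaptors differed little between the groups. The list was drawn up for double-stranded RNA but also holds TLR7 and TLR8, which sense single-stranded RNA, and their adaptor MYD88. Of 12 measured, 7 had higher and 5 lower means, the median log2 difference was 0.01, and single genes ran from -0.05 to 0.06. With limma 0 passed and 0 had an unadjusted p under 0.05, against 10.9% of all named genes. RIGI, which encodes RIG-I, had 0.03, IFIH1, which encodes MDA5, had 0.02, and TLR3, the endosomal receptor for double-stranded RNA, had -0.03. The adaptor genes MAVS, MYD88 and TICAM1 had 0.06, 0.06 and -0.05. Other proteins that bind double-stranded RNA had 4 of 6 higher and a median of 0.04, with 0 at an unadjusted p under 0.05. CDKN2AIP had 0.12 in that list, DGCR8, of the microRNA-processing complex, had 0.14, and TARBP2, a partner of Dicer and a binder of PKR, had -0.08.

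Signalling genes between sensor and nucleus, chiefly kinases and transcription factors with the adaptor TRAF3 and the inhibitors SOCS1 and SOCS3, had 11 of 15 higher means and a median log2 difference of 0.04. Higher means were found for 50.1% of all named genes, and the difference of this list from that share was not tested. That share covers rows of every level, while 14 of the 15 were at or above the median of all cluster means. At that level, among genes with a promoter in the table, higher means were found for 55.8% of 7997 without the ISRE core. With the core the share was 59.4% of 276. None of the 15 passed at an adjusted p under 0.05 with limma, and 2 had an unadjusted p under 0.05, both higher, or 13.3% against 10.9% of all named genes. They were TBK1, the kinase that activates IRF3, and TYK2, a JAK kinase of interferon receptors. TBK1 ran from 7.20 to 7.38 in control and from 7.32 to 7.57 after the mimic, a log2 difference of 0.13, SE 0.05 (limma adjusted p = 0.414). TYK2 had 0.12, SE 0.05 (limma adjusted p = 0.448), and all 6 mimic arrays of both genes lay above the control mean. IRF2, an interferon regulatory factor gene, had 0.13, IRF9 had 0.07 and IRF3 had -0.03. SOCS3, which inhibits JAK kinases, had the difference furthest from 0 in the list, at -0.16. Of 16 interferon and receptor genes listed, 2 had a row that could be named, and the rest were not analysed here. IFNGR1, a chain of the receptor for interferon gamma, ran from 7.34 to 7.41 in control and from 7.42 to 7.60 after the mimic. Its groups did not overlap, as for 1 of the 92 pathway genes and 1.75% of all named genes, and its log2 difference was 0.14, SE 0.04 (limma adjusted p = 0.290). The other chain, IFNGR2, had -0.04.

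Downstream, the interferon-stimulated genes other than the 4 were evenly divided among those measured. Of 60 listed, 41 were measured, and MX1, OAS1, OAS2, OAS3, IFI6, IFI16 and IFI27 were among those not analysed here. Of the 41, 20 had higher means and 21 lower; the median log2 difference was 0.00 and single genes ran from -0.19 to 0.15. With limma 0 passed and 3 had an unadjusted p under 0.05, 2 higher and 1 lower, or 7.32% against 10.9% of all named genes. HERC5, the ligase that attaches ISG15 to proteins, had a log2 difference of 0.10 and SP110, a nuclear body protein gene, had 0.15. UBE2L6, the conjugating enzyme of the same ISG15 pathway, had -0.17, SE 0.06 (limma adjusted p = 0.365), and ISG15 itself had -0.06. Genes widely used as readouts of an interferon response lay on both sides of 0, with RTP4 at -0.19, CCL5 at -0.12, USP18 at -0.07, CXCL10 at 0.00, MX2 at 0.07 and ISG20 at 0.11. Of the 41 rows, 28 were at or above the median of all cluster means. CXCL10 and RTP4 were below it, with means over all arrays of 2.92 and 4.3, and background in their signal was not tested.

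Within groups, correlations of the 4 genes with these interferon-stimulated genes were weak. The mean deviation over the 41 interferon-stimulated genes had Pearson correlations over 12 arrays of 0.26 with EIF2AK2, 0.37 with IFIT5, 0.41 with IFI44L and -0.10 with RSAD2. The ISRE core was found in 22 of the 32 interferon-stimulated genes with a promoter in the table, or 68.8%. With the mean deviation over these 22 the correlations were 0.18, 0.13, 0.20 and 0.25 in the same order. The sign for RSAD2 thus depended on the set of genes. Among those 22, 11 had higher and 11 lower means and 1 had an unadjusted limma p under 0.05. With only the 4 genes left out, 414 named genes with a promoter held the core, those 22 included. Of the 414, 51.7% had higher means, against 51.9% of the 10331 without the core. The medians were 0.004 in both sets, and 11.4% and 10.7% had an unadjusted limma p under 0.05, with 0 past the adjusted threshold in either. Among those at or above the median of all cluster means, 59.4% of 276 genes with the core had higher means against 55.8% of 7997 without it. Their medians were 0.017 and 0.011, and 14.1% and 11.6% had an unadjusted limma p under 0.05; these differences between the sets were not tested.

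The stress response that PKR can set off through eIF2α was measured by 12 target genes. Of these, 6 had higher means and 6 lower, and their median log2 difference was 0.00. With limma 0 passed and 1 had an unadjusted p under 0.05, or 8.33% against 10.9% of all named genes. It was VLDLR, a lipoprotein receptor gene, at 0.19, SE 0.08 (limma adjusted p = 0.403). ATF4, the transcription factor at the centre of this response, had 0.07, and its target genes DDIT3, ASNS, PSAT1 and TRIB3 had 0.15, 0.06, 0.08 and -0.11. The remaining genes of the eIF2α list could not be described as a pathway, because only 4 of 15 had a row that could be named. NCK1, an adaptor linked to eIF2α dephosphorylation, had 0.01.

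**Figure D5:**
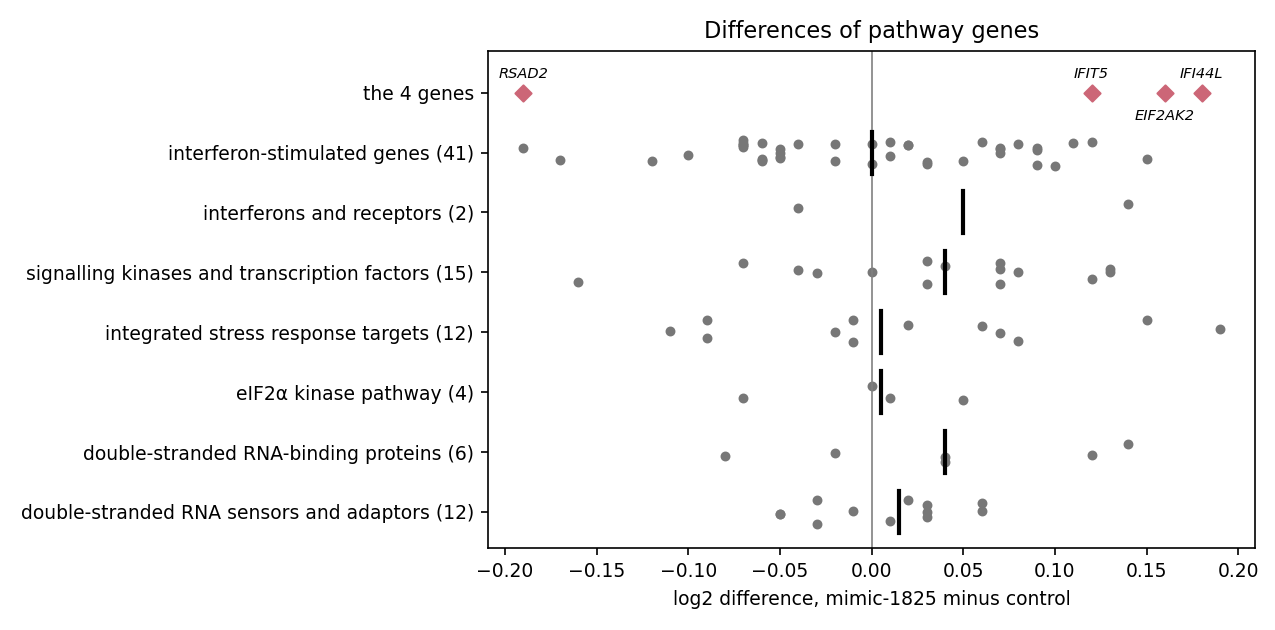
Log2 difference, mimic-1825 minus control, of each measured gene of 7 pathway lists (grey points, number of genes in brackets, black line at the median) and of the 4 genes (red diamonds). List medians lie between 0.00 and 0.05. The 4 genes had been picked for their differences on these arrays, so nothing is read from their place on the plot. Some pathway genes lay as far from 0, such as VLDLR at 0.19 and RTP4 at -0.19.

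The arrays were alike, with mean correlations to the rest of their group between 0.9907 and 0.9932. Of 11 HEK293 marker genes measured, 10 were at or above the median of all cluster means, among them HOXD10, EYA1 and SALL1, and PAX8 was below it. Of markers of other cell types, LYZ and CD14 of leukocytes and DCN of fibroblasts lay below that median in both groups, and 3 of 5 leukocyte, 2 of 3 fibroblast and 5 of 9 epithelial markers lay at or above it, including EPCAM and KRT18. Epithelial markers had 8 of 9 lower means after the mimic, with a mean log2 value from 5.45 to 5.53 in control and from 5.36 to 5.50 after the mimic. Leukocyte markers had 4 of 5 lower, ranging from 4.69 to 4.88 and from 4.59 to 4.79, and fibroblast markers had 1 of 3 lower, from 4.46 to 4.60 and from 4.46 to 4.65. No marker passed at an adjusted p under 0.05 with limma, and 3 had an unadjusted p under 0.05, all lower: SPI1 of leukocytes at -0.31 (1 of 5, 20.0%), and CLDN7 at -0.22 and KRT18 at -0.10 of the epithelial list (2 of 9, 22.2%), against 10.9% of all named genes. The part of these markers in the differences above was not tested.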

How the data were processed

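The deposited table holds log2 expression values for 53617 transcript clusters on 12 arrays, which the authors obtained from Expression Console (Affymetrix), as the submitters' processing notes list. Its settings, its version and the genome build remain not given in the sources used here. That the scale is log2 was read from the values, which run from 1.62 to 14.4 with array medians of 4.44 to 4.51. The number of arrays limits the precision. Clusters were named through the platform annotation, with symbols updated by RefSeq gene identifier: 16098 had 1 gene, 0 had several and 37519 were unnamed here. Genes called measured are those with a named row, so a listed gene not measured may lie in an unnamed row. For each gene the row with the highest mean was used; each of the 4 genes had 1 row.

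Mimic and control were compared with limma 3.58.1 under R 4.3.3 (linear model with empirical Bayes variances over all clusters, two-sided, Benjamini-Hochberg, threshold 0.05), after a test on simulated data. The 4 genes and the gene lists were chosen with earlier results of these data known. Beside the 4 genes, named genes were their closest relatives, the 3 genes of each pathway list with the smallest p, and the 3 most alike to each gene; others were named after their values were seen. A planned comparison of levels with olfactory receptor genes was not run, as 1 such gene was named, a pseudogene. The promoter search and the correlations without a single array were chosen after seeing the data. Alternatives covered scaling, variance prior, replicate block, filters, row choice and leaving out each array. Replicate numbers recur in both groups, but same-numbered arrays deviated with correlations from -0.11 to 0.08, so they were not treated as pairs.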

Additional observations from a re-analysis of the deposited data

Results flagged for a closer look

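For each named gene and each list mean, the extreme arrays of control and of mimic were checked for a gap to the rest, 108 groups of 6 in all. A gap was found in 13, and no explanation was tested. Chance gives about 1 in 20 for independent groups. These were not independent, because some genes were picked for following others and list means hold some of the same genes. Nothing is therefore read from the count. The highest IFI44L value, 4.98 in mimic replicate 3, stood against 4.56 to 4.67 on the other 5 mimic arrays. In the same array PPARG was 6.91 against 6.80 to 6.82, and CNTNAP1 was 5.14 against 4.85 to 4.95. These 2 genes had been picked for following IFI44L, so their gaps are not independent of its own.

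RSAD2 was lowest in control replicate 4 at 3.77, against 4.06 to 4.13. NAGK, IFITM4P and UNCX, picked for following RSAD2, were lowest there too, at 6.23, 6.80 and 7.86 against 6.45 to 6.51, 7.10 to 7.23 and 8.03 to 8.09. Control replicate 4 was the lowest control for 19.2% of named genes, and control replicate 6 was for 22.7%.

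IFIT2 was lowest in mimic replicate 6 at 3.26, against 3.41 to 3.46. MYD88 was highest in control replicate 2 at 7.17, against 6.82 to 6.93, and the mean of the sensors and adaptors was also highest there, at 5.94 against 5.86 to 5.89. IFNGR2 was highest in control replicate 1 at 7.38, against 7.29 to 7.31. The mean of the double-stranded RNA-binding proteins was lowest in mimic replicate 4 at 8.39, against 8.46 to 8.49. The mean of the HEK293 markers was lowest in mimic replicate 6 at 6.78, against 6.84 to 6.87.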

How the results depend on the processing

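The log2 differences of the 4 genes kept their direction in all 16 alternatives each and moved by less than 1 SD between replicates, which says little because the genes were chosen on these arrays. Without single arrays they ran from 0.14 to 0.17 for EIF2AK2, 0.10 to 0.14 for IFIT5, 0.13 to 0.22 for IFI44L and -0.24 to -0.16 for RSAD2. After quantile normalization they were 0.14, 0.10, 0.20 and -0.17, and with a replicate block 0.16, 0.12, 0.18 and -0.19. The count of 0 pathway genes past the threshold was 0 in all 20 alternatives. This says little about the pathway, because 0 of all 14884 named genes passed in the main setting. In the brightest 25%, 0 of 48 pathway genes passed beside 242 of 13405 clusters. The 6 clusters past the threshold became 0 with a replicate block or 1 cluster per named gene, 39 with a trended, robust variance prior, 13 at or above the median mean and 242 in the brightest 25%; without single arrays the count ran from 0 to 6, and the cause was not tested. The count was 0 without control replicate 1, 2 or 3 or mimic replicate 1, 2, 4, 5 or 6, and 2 without control replicate 4 or mimic replicate 3. The median of the sensors and adaptors ran from -0.02 to 0.02 without single arrays, and that of the interferon-stimulated genes from -0.02 to 0.01. Background signal is not known here, which limits what the rows of IFI44L and RSAD2 can show.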
